A study of Mus musculus with 20 samples.

Results

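The genes described here encode the nuclear subunits of oxidative phosphorylation and were chosen by name: those whose symbols start Nduf with a subunit letter and number, the Sdh genes, and those that start Uqcr, Cox with a subunit number, or Atp5. They are 84 of the 27916 genes used. By complex they are 35 genes of complex I (NADH dehydrogenase), 4 of complex II (succinate dehydrogenase), 8 of complex III (cytochrome bc1), 19 of complex IV (cytochrome c oxidase, with Ndufa4 and Ndufa4l2 counted here) and 15 of complex V. Cox7a2l, which joins complexes into supercomplexes, and Atp5s and Atp5sl, which help assembly, have names that fit but are not subunits. They were left out of the complexes but count among the 84, in the sums and counts over all chosen genes. The whole set is called subunit genes below for short. These names miss some nuclear subunits, among them Ndufab1 of complex I, so sums by complex cover the matched genes only.

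Oxidative phosphorylation makes ATP in the inner mitochondrial membrane. Complexes I and II feed electrons from NADH and succinate into ubiquinone, and complexes III and IV pass them through cytochrome c to oxygen. Complexes I, III and IV pump protons, and complex V, the ATP synthase, lets the protons return to make ATP. Most subunits are encoded in the nucleus and a few core subunits by mitochondrial DNA. T cells in tumours are known to lose mitochondrial capacity as they become exhausted, and melanoma cells and macrophages can vary widely in how much they respire.

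The cells came from B16-OVA melanoma, a mouse melanoma line that carries chicken ovalbumin. T cells of the CD8 lineage that carry the OT-I receptor, which recognises an ovalbumin peptide, were transferred into the tumour-bearing mice. They came from mice that were wild-type or Tet2-/-, lacking a dioxygenase that oxidises methylated cytosine. Tumour-infiltrating cells were taken on day 8 after transfer, from mice with or without anti-PD-L1, an antibody that blocks an inhibitory ligand of T cells, and profiled by droplet single-cell RNA sequencing. There were 4 groups with 1 library each, and values are listed in this order: untreated wild-type, wild-type given anti-PD-L1, untreated knockout, and last the knockout given anti-PD-L1. The labels do not say how many mice a library pools, and state the deletion only for the transferred T cells. The other 16 samples of the series, bulk RNA and ATAC sequencing from earlier time points, were not analysed here.

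Cells fell into CD8 T cells (1124, 1321, 1552 and 1028 cells), macrophage-like cells (204, 175, 405 and 181) and melanoma-like cells (929, 69, 190 and 50), although the labels call every library CD8+ TILs. Each was named from marker genes, and cells were clustered without the genes described here. The 11 CD8 T cell markers summed to between 13888 and 22097 CPM (UMIs per 1000000, counts scaled to the same total for every cell type and library) in the CD8 T cells, and none was at 0. Transferred and host CD8 T cells were not told apart. The class held 4852627 to 8225319 UMIs per library. Tet2 itself stood at 13.4, 15.8, 23.1 and 17.9 CPM in CD8 T cells, so it was not lower in the libraries labelled knockout. Counts are of 3′ ends, and which part of Tet2 is deleted is not given in the sources used here, so this does not check the label, and "knockout" below means the library labelled so. The wild-type untreated library stood apart: 46.4% and 36.7% of its CD8 T cells lay in clusters 6 and 10, which held 1.89% or less of any other library's, while 26.2% and 29.7% of the wild-type anti-PD-L1 cells lay in clusters 14 and 15. Any 2 libraries had 1 to 10 cell barcodes in common. Since each group is 1 library, differences between groups have no test, and 95% intervals on them cover counting error only. A gene was called higher or lower when its mean over the 4 libraries was at least 20 CPM (the floor) and the levels differed at least 1.5-fold.

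Promoters of these genes tend to be rich in CpG, the dinucleotide whose cytosine can be methylated in mammals. TET enzymes act on the methylated cytosine, and methylation was not measured in these libraries. RefSeq windows of 300 bases on GRCm38.p6, from 250 bases before the start to 50 after it, were found for 66 of the 84 genes. The median window of the 62 that passed the floor in a cell type held 19.0 CpG (range 5 to 43), that of the 4 that passed it in none held 8.5, and that of all 27025 genes with a window held 8.0. The common and the restricted forms of 2 complex IV subunits are shown, because the restricted forms differed in level between cell types (given at the end). In the 300-base windows the common Cox8a held 19 CpG and Cox8b 2, and Cox6b1 held 17 and Cox6b2 10. Cox7a2 held 20 and the restricted Cox7a1 7. The common Cox7b held 5, fewer than the 10 of the restricted Cox7b2. The sequences are the 150 bases before the start, 5′ to 3′ on the gene's own strand, with each CpG in capitals. The Cox8a window (chr19:7217617-7217766, minus strand) holds 10 CpG and the Cox8b window (chr7:140900447-140900596, minus strand) holds 1.
Cox8a: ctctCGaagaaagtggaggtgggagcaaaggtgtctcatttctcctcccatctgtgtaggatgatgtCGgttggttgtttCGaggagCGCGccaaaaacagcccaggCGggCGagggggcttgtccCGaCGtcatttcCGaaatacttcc
Cox8b: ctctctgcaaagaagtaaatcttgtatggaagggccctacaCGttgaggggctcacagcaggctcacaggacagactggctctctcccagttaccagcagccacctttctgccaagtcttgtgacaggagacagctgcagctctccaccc
The Cox6b1 window (chr7:30626115-30626264, minus strand) holds 12 CpG and the Cox6b2 window (chr7:4753095-4753244, minus strand) holds 7.
Cox6b1: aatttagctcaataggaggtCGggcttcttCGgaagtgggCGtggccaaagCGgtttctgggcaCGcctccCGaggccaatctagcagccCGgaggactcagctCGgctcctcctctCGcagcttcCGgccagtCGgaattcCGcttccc
Cox6b2: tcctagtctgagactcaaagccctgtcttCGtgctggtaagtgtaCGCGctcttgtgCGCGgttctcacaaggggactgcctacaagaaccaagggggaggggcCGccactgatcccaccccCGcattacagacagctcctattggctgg

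The window of Atp5k (chr5:108434400-108434549, minus strand), the gene with the largest ratio between libraries in CD8 T cells, is shown with its match to the NRF1 pattern in capitals. The pattern is GCGCA, then any 1 base, then GCGC, and NRF1 is a transcription factor known to bind promoters of respiratory chain genes.
Atp5k: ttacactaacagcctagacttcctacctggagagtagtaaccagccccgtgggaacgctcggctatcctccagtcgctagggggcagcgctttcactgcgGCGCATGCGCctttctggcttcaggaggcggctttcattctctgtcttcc
On either strand of the 300-base windows, the NRF1 pattern was found for 17 of 66 genes (25.8%, against 5.19% of all genes). CCGGAAG, the core of ETS factors, was found for 16 (24.2% against 9.93%), and AAGATGGC, bound by YY1, for 9 (13.6% against 3.19%). TCAAGGTCA, of estrogen-related receptors, was found for 2 (3.03% against 0.466%). The shares of CACGTG (7.58% against 8.09%), CCAAT (43.9% against 41.1%), GGGCGG (39.4% against 38.2%) and TATAAA (10.6% against 15.7%) lay closer to those of all genes. In all 14 patterns were searched, the other 6 being variants of the first 3, and some matches overlap. The genes of all kinds set beside these were not matched to them for expression or CpG. That holds for the CpG counts above too. A match is a run of letters and no measurement of binding.

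In CD8 T cells the nuclear subunit genes took a larger share of the RNA in the wild-type untreated library than in the other three. All 84 genes together held 3.69%, 3.06%, 3.17% and 3.16% of the UMIs. The median CD8 T cell held 3.67%, 2.94%, 3.09% and 3.11%, again highest in wild-type untreated and lowest in wild-type with anti-PD-L1, and the quartiles of the wild-type untreated cells (3.31% to 3.98%) lay above those of the wild-type anti-PD-L1 cells (2.63% to 3.26%). The highest of the 4 libraries was wild-type untreated for 60 of the 74 genes past the floor, against 50.1% of the 4627 genes of all kinds past it. It was also the highest for 42 of 73 genes in macrophage-like cells (38.7% of all genes) and for 46 of 74 in melanoma-like cells (31.4%).

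**Figure D1:**
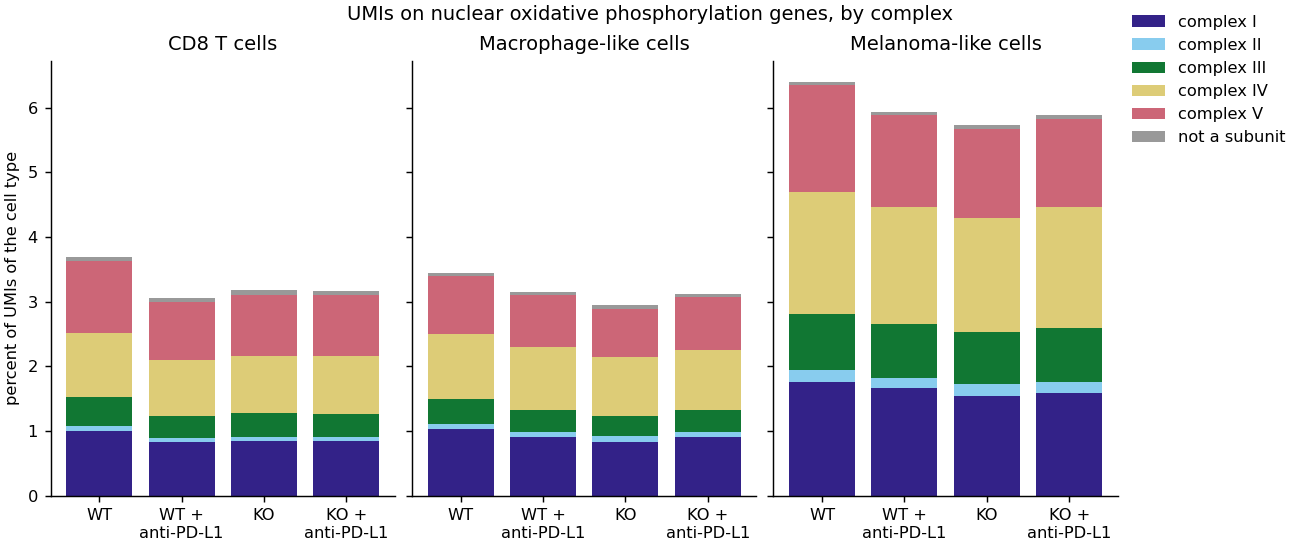
Bars give the percent of all UMIs of a cell type that fell on the nuclear oxidative phosphorylation genes, stacked by complex, in each of the 4 libraries (WT wild-type, KO knockout, 1 library per bar). The wild-type untreated bar is the highest in all 3 cell types, 3.69%, 3.44% and 6.40%.

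Each complex was highest in the wild-type untreated CD8 T cells. Complex I held 1.00%, 0.827%, 0.843% and 0.848% of the UMIs, complex III 0.438%, 0.345%, 0.370% and 0.356%, complex IV 0.998%, 0.864%, 0.878% and 0.885%, and complex V 1.12%, 0.893%, 0.942% and 0.952%. Complex II, which is also an enzyme of the tricarboxylic acid cycle, held 0.0810%, 0.0582%, 0.0681% and 0.0643%. The other libraries lay below it in each complex, and wild-type with anti-PD-L1 was the lowest by these shares of library totals. That lowest place depends on scaling. With TMM factors, which assume that most genes do not differ, it did not hold for the summed genes. Knockout over wild-type under anti-PD-L1 then gave a summed log2 ratio of -0.01.

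Among untreated tumours the summed level was lower in knockout than in wild-type CD8 T cells by a log2 ratio of -0.22 (95% interval -0.23 to -0.21). The log2 ratio was -0.25 for complex I, -0.25 for II, -0.24 for III, -0.18 for IV and -0.24 for V. The 3 chosen genes outside the complexes went the other way (+0.28). Of the 74 genes past the floor, 7 were called lower and 0 higher, against 6.87% and 7.89% of all genes. Their median log2 ratio was -0.22, against -0.10 for all genes. Of the 74, 68 were below 0, against 60.9% of all genes, and 56 were below the all-gene median. The share called lower was near that of all genes, so this count is not a result about these genes.

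Atp5k, the small e subunit of the ATP synthase that lies where its dimers meet, differed most, with 317, 362, 135 and 260 CPM in the 4 libraries. The knockout untreated library was the low one, at a log2 ratio of -1.23 (-1.34 to -1.12) to wild-type untreated. Ndufa3, an accessory subunit of complex I, followed the same order with 325, 401, 200 and 317 CPM (-0.70, -0.80 to -0.60). The other 5 called genes were instead highest in wild-type untreated and lower in all the others. Ndufa9, an accessory subunit near the quinone site of complex I, stood at 143, 72.3, 86.3 and 89.7 CPM (-0.73, -0.88 to -0.57). Sdha, the flavoprotein of complex II that oxidises succinate, stood at 150, 86.4, 92.1 and 94.8 CPM (-0.70, -0.85 to -0.55). Uqcrc1, a core protein of complex III, stood at 356, 200, 230 and 219 CPM (-0.63, -0.73 to -0.53). These genes show 2 patterns, a dip in 1 library and a peak in another, that give the same sign in this comparison. Ndufs1, the largest iron-sulphur subunit of complex I, was the scarcest gene past the floor, with 42.2, 23.8, 25.4 and 24.6 CPM (-0.73, -1.02 to -0.44), and Ndufc1, an accessory subunit, stood at 256, 186, 169 and 193 CPM (-0.60). The highest ratios were those of Cox7a2l (+0.30), Ndufa6 (+0.15) and Uqcrh, the hinge protein of complex III (+0.14), and none reached 1.5-fold.

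**Figure D2:**
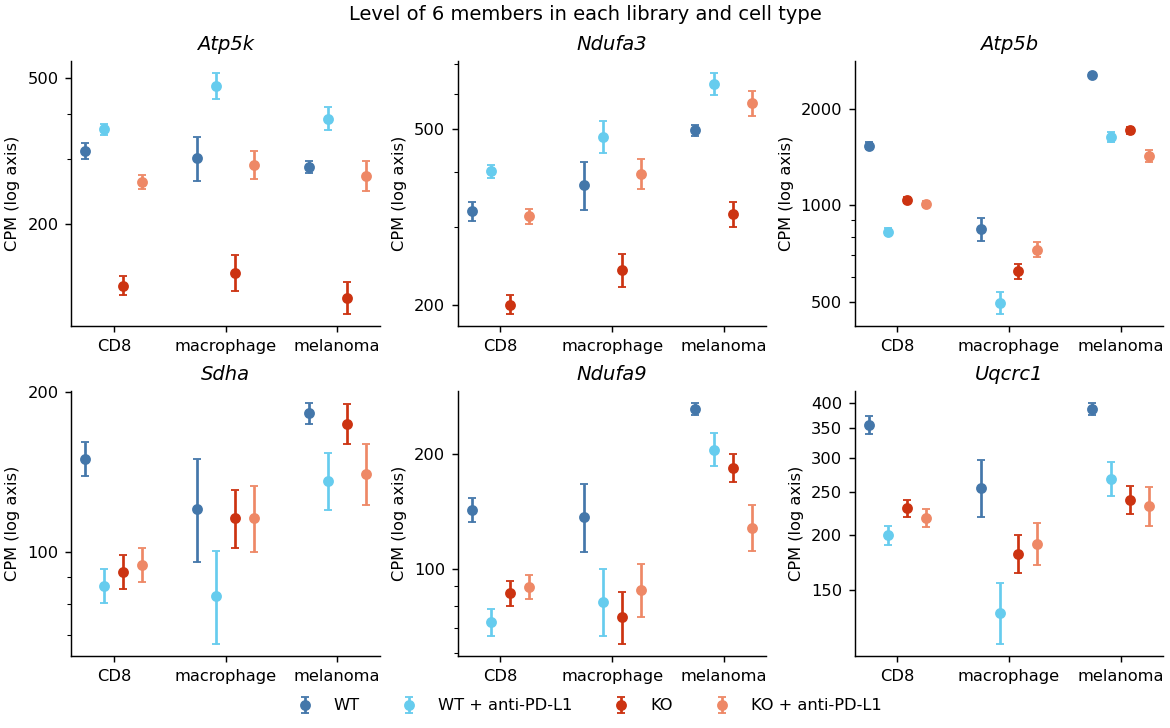
Points give the level in CPM (log axis) of 6 genes in each library and cell type, and bars the exact 95% Poisson interval of the UMI count, with 1 library per point. Atp5k and Ndufa3 are lowest in knockout untreated in all 3 cell types, while Atp5b and Uqcrc1 are highest in wild-type untreated in all 3.

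Against the same wild-type untreated library, the wild-type anti-PD-L1 CD8 T cells also held less of these transcripts. With TMM factors the summed ratio equalled that of the genotype comparison to 2 decimals (-0.14 in both). With library totals the summed level was lower, with a log2 ratio of -0.27 (-0.28 to -0.26), and 14 of 74 genes were called lower and 0 higher, against 20.6% and 11.3% of all genes. The median was -0.37, against -0.18 for all genes. Complex II had the largest summed difference (-0.48), then III (-0.34), V (-0.32), I (-0.28) and IV (-0.21), and no complex IV gene was called. The 3 chosen genes outside the complexes again went the other way (+0.22). By complex the called genes were 7 of 35 in I, 1 of 4 in II, 3 of 8 in III and 3 of 15 in V. Because this comparison and the genotype comparison of untreated tumours share the wild-type untreated library, their resemblance is not separate evidence.

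The 14 included catalytic and core subunits. Atp5b, the catalytic beta subunit of the ATP synthase, stood at 1535, 829, 1043 and 1010 CPM, the alpha subunit Atp5a1 at 775, 480, 610 and 545, and Atp5f1, subunit b of the stalk, at 724, 460, 565 and 515. Each was highest in wild-type untreated and lowest in wild-type with anti-PD-L1, with log2 ratios of -0.89 (-0.94 to -0.84), -0.69 (-0.76 to -0.63) and -0.65 (-0.72 to -0.59). In complex I the called genes were Ndufa9 (-0.98), Ndufs1 (-0.83), Ndufa12 (-0.82), Ndufv1, the NADH-binding flavoprotein (-0.79), Ndufs3 (-0.64), Ndufs7 (-0.61) and Ndufs8 (-0.59). In complex III they were Uqcrc1 (-0.84), Uqcrc2 (-0.64) and Uqcr10 (-0.60), and in complex II Sdha (-0.80). The highest ratios were those of Ndufa6 (+0.47), Ndufa1 (+0.31) and Ndufa3 (+0.30), none of which reached 1.5-fold. The share called lower was again near that of all genes.

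**Figure D3:**
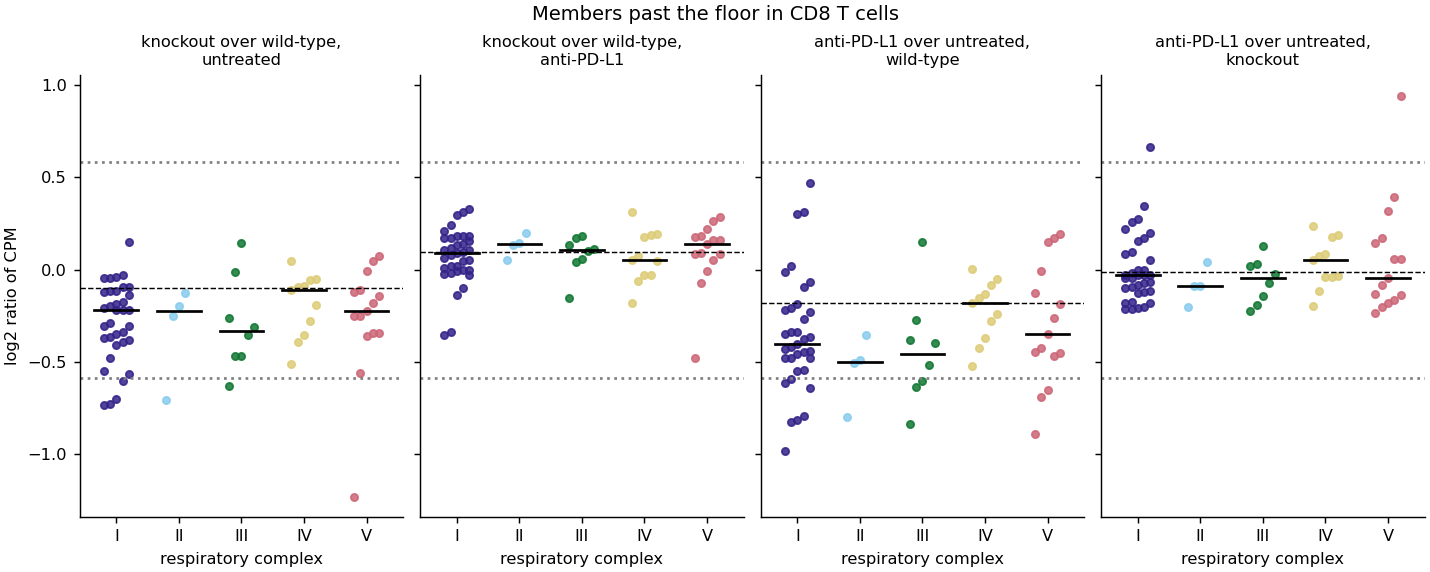
Points give the log2 ratio of each gene past the floor in CD8 T cells, by complex, in the 4 comparisons, with the median of a complex as a solid bar, the median of all genes as a dashed line and 1.5-fold as dotted lines. In the comparisons that use the wild-type untreated library most points lie below the dashed line. Atp5k lies farthest out in the untreated genotype comparison (-1.23) and in the knockout treatment comparison (+0.94).

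Both libraries with anti-PD-L1 differed little from each other. The summed level was +0.05 (0.04 to 0.06) in knockout over wild-type, 0 of 74 genes were called either way, against 1.06% higher and 1.47% lower of all genes, and the median equalled that of all genes at 0.09. The highest ratios were those of Ndufv1 (+0.33) and Ndufa4 (+0.31), and the lowest those of Atp5k (-0.48, -0.56 to -0.40) and Ndufa6 (-0.35). In the knockout, anti-PD-L1 over untreated gave a summed log2 ratio of -0.00 (-0.01 to 0.00). There 2 genes were called higher and 0 lower, against 2.9% and 1.12% of all genes. They were Atp5k (+0.94, 0.84 to 1.05) and Ndufa3 (+0.66, 0.57 to 0.75), and the next were Atp5e, the epsilon subunit of the ATP synthase (+0.39), and Ndufb2 (+0.34). The lowest were Cox7a2l (-0.32) and Atp5j (-0.24).

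Scaling and cell choice bear on these values. With TMM factors, which assume that most genes do not differ, the all-gene median of the wild-type treatment comparison moved from -0.18 to -0.04, the summed ratios of the first 2 comparisons described became -0.14 and -0.14, and 5 and 7 genes were called lower (in the second with 1 higher). The genotype ratio under anti-PD-L1 changed sign, to -0.01. In cells of 3000 to 6000 UMIs, taken because the median CD8 T cell had 3750 UMIs in wild-type untreated and up to 6834 elsewhere, the summed ratios were -0.28 and -0.35, with 13 and 24 genes called lower. Where at least 50 cells of both libraries lay in 1 cluster, the genotype comparison of untreated tumours could be made only in cluster 1, a cycling cluster, and gave -0.18 (129 and 122 cells). No cluster allowed it for treatment in the wild-type. Melanoma markers seen in CD8 T cells reached 0.579% of their level in melanoma cells in wild-type untreated and 0.0787% to 0.157% elsewhere. Macrophage markers reached 0.0995% to 0.137% of their level in macrophage-like cells. Subtracting the RNA of both left -0.21 and -0.27.

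Macrophage-like and melanoma-like cells, which were not the transferred cells, showed summed ratios of the same sign in the comparisons with wild-type untreated. The summed ratio of knockout over wild-type, untreated, was -0.22 (-0.24 to -0.20) in macrophage-like cells and -0.16 (-0.17 to -0.15) in melanoma-like cells, beside -0.22 in CD8 T cells. For anti-PD-L1 in the wild-type it was -0.13 and -0.11. These ratios use library totals. The TMM factors, by which levels are divided, were 1.06, 0.98 and 0.97 in the first 3 libraries of macrophage-like cells. They would shrink both ratios there. In melanoma-like cells they were 0.97, 0.99 and 1.04, which would enlarge both. The 11 CD8 T cell markers summed to 1863, 5604, 4448 and 3460 CPM in macrophage-like cells and to 283, 570, 702 and 629 CPM in melanoma-like cells, lowest in wild-type untreated in both and with none at 0. Their part in these ratios was not tested. In macrophage-like cells 0 of 73 genes were called higher and 4 lower for genotype in untreated tumours (12.7% and 12.8% of all genes), 1 and 1 for genotype under anti-PD-L1 (7.06% and 4.94%), 1 and 6 for treatment in the wild-type (13.9% and 16.0%), and 2 and 0 for treatment in the knockout (5.86% and 3.26%). In melanoma-like cells the counts of 74 were 0 and 5 (6.36% and 4.25%), 0 and 1 (6.7% and 8.75%), 0 and 3 (3.51% and 2.76%), and 2 and 0 (2.74% and 4.54%). Of the 7 genes called lower in CD8 T cells in the first comparison, 6 passed the floor in macrophage-like cells and 7 in melanoma-like cells. All of these had the same sign there, and 3 passed 1.5-fold in each. Of all genes called lower in CD8 T cells, 81.9% and 89.1% had the same sign, and 46.1% and 30.2% passed 1.5-fold. Of the 14 in the second, 13 of 13 past the floor had the same sign in macrophage-like cells and 13 of 14 in melanoma-like cells, against 90.2% and 71.9% of all genes, and 5 and 2 passed 1.5-fold, against 46.7% and 3.55%. Ndufs1 was the gene under the floor in macrophage-like cells. In the first comparison Sdha and Ndufc1 were exceptions in size. The ratio of Sdha was -0.70 in CD8 T cells, beside -0.06 (-0.42 to 0.32) in macrophage-like and -0.06 (-0.21 to 0.08) in melanoma-like cells. That of Ndufc1 was -0.60, beside -0.31 (-0.53 to -0.09) in macrophage-like and -0.05 (-0.13 to 0.03) in melanoma-like cells. Where such an interval spans 0, the sign is open.

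Atp5k stood at 302, 476, 146 and 290 CPM in macrophage-like cells and at 285, 387, 125 and 270 CPM in melanoma-like cells. The knockout untreated library was the lowest in all 3 cell types, with ratios to wild-type untreated of -1.23, -1.04 and -1.19. Ndufa3 stood at 372, 479, 240 and 395 CPM in macrophage-like cells and at 496, 631, 321 and 571 CPM in melanoma-like cells, again lowest in knockout untreated. Atp5b was highest in wild-type untreated in both, with 842, 497, 625 and 729 CPM and with 2548, 1628, 1712 and 1423 CPM. RefSeq lists 4 pseudogenes of Atp5k. How reads that match several places were counted is not given in the sources used here, so the level of Atp5k is uncertain.

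Across genes, the ratio in CD8 T cells followed that of the same 2 libraries in both other cell types in 3 of the 4 comparisons. For the untreated genotype comparison Pearson's r was 0.697 with macrophage-like cells (73 genes, Spearman's rho 0.568) and 0.676 with melanoma-like cells (74 genes, rho 0.520). For treatment in the wild-type it was 0.715 and 0.699 (rho 0.690 and 0.677), and in the knockout 0.803 and 0.766 (rho 0.624 and 0.573). The genotype comparison under anti-PD-L1 gave 0.579 with macrophage-like but -0.236 with melanoma-like cells (rho 0.545 and -0.329), which were 69 and 50 in number there. These are correlations across genes, which are not independent replicates, and the points share their libraries, depth and any RNA that passes between cells. What these shared features add to the correlations was not tested.

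**Figure D4:**
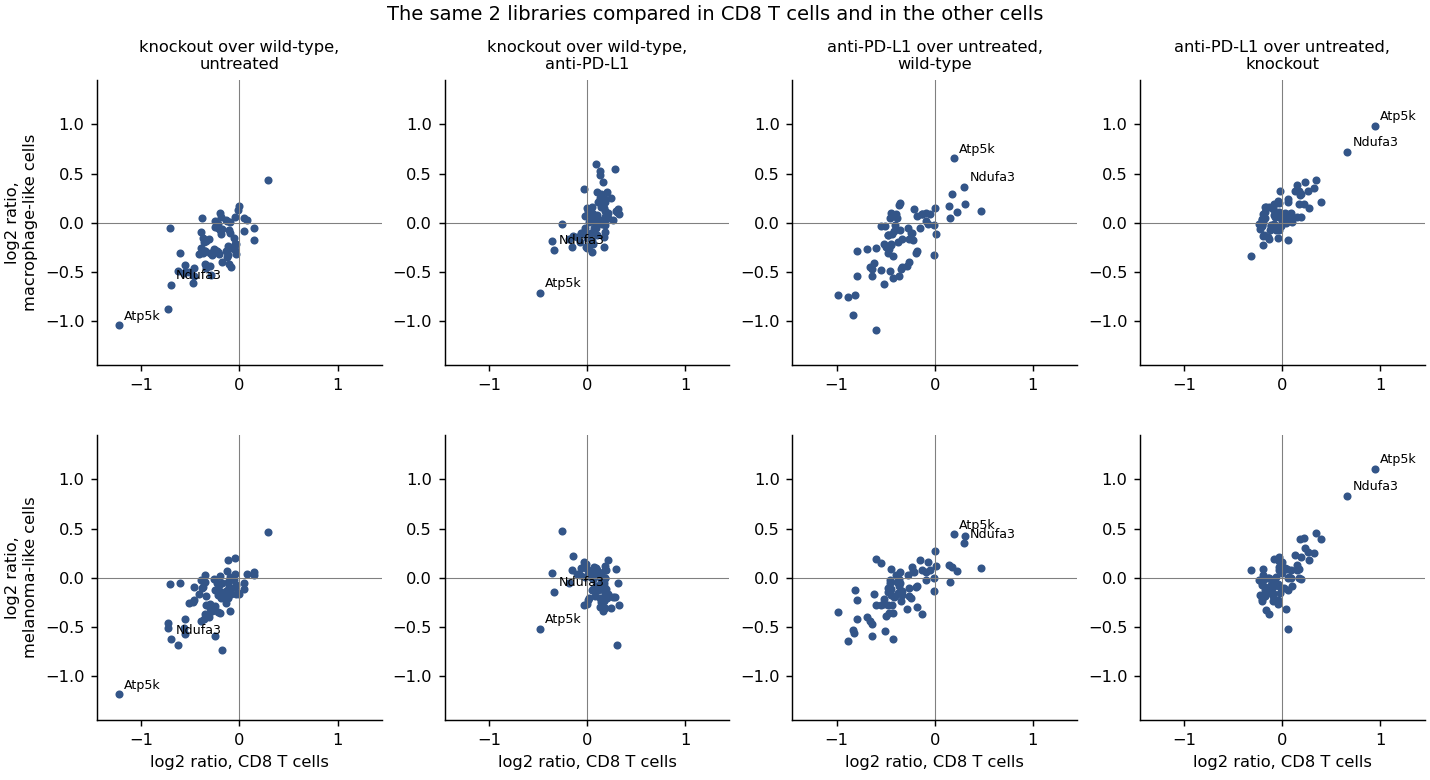
Each point is 1 gene past the floor in both cell types, with its log2 ratio in CD8 T cells on the x axis and in macrophage-like (top) or melanoma-like cells (bottom) on the y axis, for the 4 comparisons. In the untreated genotype comparison Atp5k lies far from the rest near the diagonal (-1.23, -1.04 and -1.19 in CD8 T, macrophage-like and melanoma-like cells). Both Atp5k and Ndufa3 do so in the knockout treatment comparison.

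The 13 subunits encoded by mitochondrial DNA, which join the nuclear subunits in complexes I, III, IV and V, had a ratio of the opposite sign to the nuclear genes in CD8 T cells of untreated tumours. They held 2.19%, 2.37%, 2.69% and 2.32% of the UMIs. Knockout over wild-type, untreated, gave a summed log2 ratio of +0.29 (0.28 to 0.30), where the nuclear genes gave -0.22, and of the 11 past the floor 2 were called higher and 0 lower, against 7.89% and 6.87% of all genes. These were mt-Nd1 (1442, 1990, 2564 and 2334 CPM) and mt-Nd2 (340, 404, 547 and 455 CPM), core subunits of complex I and lowest in wild-type untreated. Anti-PD-L1 over untreated gave +0.11 in the wild-type and -0.21 in the knockout, where mt-Co2 (-0.33) was lowest and mt-Nd3 (+0.43) highest. In melanoma-like cells the mitochondrial genes held 3.74%, 4.2%, 4.97% and 5.19%, and in macrophage-like cells 2.86%, 2.76%, 2.87% and 2.64%. Cells with over 10% of UMIs on these genes had been left out, which limits the range of this share.

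Other genes of mitochondrial function were read from lists by pathway. In the wild-type treatment comparison 42 of the 72 mitochondrial ribosomal protein genes past the floor were called lower and 0 higher (median -0.62). Mrps18b (-1.09) was lowest and Mrpl33 (+0.02) highest. All genes stood at 20.6% lower, 11.3% higher and a median of -0.18. Of 18 tricarboxylic acid cycle genes 10 were lower and 0 higher (median -0.61), led by fumarase Fh1 (93.4 and 46.3 CPM in the wild-type, 59.8 and 51.7 CPM in the knockout) and by Mpc1, a subunit of the mitochondrial pyruvate carrier (-0.86). The subunit genes stood beside these at a median of -0.37 and 14 of 74 lower; the difference between the lists was not tested. Of 13 carriers and related genes 4 were lower and 1 higher, with Coq7 (-1.19), an enzyme of ubiquinone synthesis, and Atpif1 (-0.81), the inhibitor of ATP synthase, lowest and Coq10b (+1.04) highest. Of 23 assembly factors 4 were lower and 1 higher, no more than the shares of all genes, with Ecsit (-0.86) lowest and Ttc19 (+1.05) highest.

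In the untreated genotype comparison the ribosomal list had 2 of 72 lower (median -0.27), and the cycle list 2 of 18 (median -0.37), Fh1 (-0.64) and Mpc1 (-0.63). Among all genes 6.87% were lower, with a median of -0.10. Among assembly factors Cox17, which carries copper to complex IV, was lowest (-0.83) and was higher with treatment in the knockout (193 and 344 CPM, +0.83). Among regulators of mitochondrial biogenesis, 5 of 13 passed the floor. Tfam, which packages and transcribes mitochondrial DNA, stood lower in knockout untreated (-0.49) and in wild-type with anti-PD-L1 (-0.67) than in wild-type untreated. Myc, a transcription factor that promotes growth, stood higher in both (+0.87 and +0.51). Under anti-PD-L1, knockout over wild-type gave 1 higher call in the 5 lists other than the mitochondrial DNA genes, Mrpl50 (+0.61), and 0 lower, where 1.06% and 1.47% of all genes were called.

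Between cell types the 4 libraries allow a test. Melanoma-like cells gave the nuclear subunit genes 6.40%, 5.93%, 5.73% and 5.88% of their UMIs, above every value in CD8 T cells (3.06% to 3.69%) and macrophage-like cells (3.44%, 3.14%, 2.95% and 3.11%). In edgeR's quasi-likelihood test with library as block and TMM factors, 80 of the 84 genes could be tested. Of these, 53 were higher and 10 lower in melanoma-like than in CD8 T cells at an adjusted p under 0.05, against 37.7% and 35.4% of all 10486 genes tested. Against macrophage-like cells 45 were higher and 11 lower (33.7% and 32.2% of all). Macrophage-like over CD8 T cells gave 34 higher and 15 lower (30.6% and 31.4%). With library totals in place of TMM factors, added after the data were seen, the counts were 66 and 3, 68 and 4, and 18 and 19, against 49.4% and 23.8%, 53.8% and 21.9%, and 27.2% and 37.1% of all genes, and the all-gene median for melanoma-like over CD8 T cells was 0.40 in place of 0.02. So the predominance of higher genes in melanoma-like cells held under both scalings, while that in macrophage-like over CD8 T cells did not.

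In melanoma-like over CD8 T cells the complex I genes were called, with TMM factors, 30 higher and 3 lower of 35, complex III 5 and 1 of 8, complex IV 9 and 1 of 15 tested, complex V 7 and 3 of 15, and complex II 1 and 0 of 4. With library totals complex V had 12 higher and 0 lower, complex I 31 and 0, complex III 6 and 0, complex IV 12 and 1, and complex II 4 and 0. All genes stood at 37.7% higher and 35.4% lower with TMM factors, and at 49.4% and 23.8% with library totals. The one called with TMM factors in complex II was Sdhb, its iron-sulphur subunit, with 373, 292, 342 and 322 CPM in CD8 T cells and 1246, 1199, 1308 and 1235 CPM in melanoma-like cells. Its log2 ratio was the highest of the 80 (1.52, SE 0.10, edgeR adjusted p = 9.1e-10). Sdha, Sdhc and Sdhd had ratios of 0.22, 0.21 and 0.05 that missed the threshold, but passed it with library totals (0.61, 0.60 and 0.43, against 1.91 for Sdhb). Ndufa4, a subunit of complex IV despite its name, was next (658, 459, 618 and 570 CPM against 2364, 2035, 2102 and 1966, ratio 1.498), followed by Ndufa5 (1.497), Cox5b (1.38) and Cox7b (1.31). For these 5 genes the CPM of every melanoma-like library lay above that of every CD8 T cell library. They were picked for the largest ratios, so this gap is no further support.

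The lower genes in melanoma-like over CD8 T cells were led by Cox6b2, whose ratio is not given because melanoma-like cells held 2 UMIs of it, Atp5sl (-1.09), Cox7a2l (-0.68), Ndufv1 (-0.57) and Ndufs8 (-0.42). With library totals Atp5sl and Cox7a2l were still lower (-0.71 and -0.29), and Ndufv1 and Ndufs8 missed the threshold (-0.19 and -0.03). Another 4 genes called lower with TMM had ratios above 0 with totals, none past the threshold: Atp5g2 (0.10), Uqcrfs1 (0.10), Ndufb7 (0.16) and Atp5e (0.16). Over macrophage-like cells, Ndufa4 (1.89), Ndufs1 (1.63), Cox7b (1.27), Cox5b (1.11) and Atp5s (1.11) led the higher genes. The lower ones were led by Cox4i2, Cox6b2, Cox6a2, Cox7a1 (-1.39) and Atp5k (-0.71, but -0.18 with library totals, adjusted p = 0.14). With totals 5 of the genes lower than in macrophage-like cells changed sign: Ndufa7, Ndufs8, Cox6a1, Cox7a2l and Ndufa13.

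Between macrophage-like and CD8 T cells the counts with TMM factors differed by complex. Of all genes 30.6% were higher and 31.4% lower, and the counts of complex III lay near those shares. The median ratio of complex V was -0.09, against -0.04 for all genes. Complex V had 6 of 15 lower and 2 higher in macrophage-like cells, with Atp5a1 (-0.59) and Atp5g2 (-0.58) lowest, and complex III had 3 each way, led by Uqcrc2 (-0.72, adjusted p = 4.8e-05) and Uqcrb (0.61). Complex II had 3 of 4 higher, led by Sdhc (0.87), which anchors the complex in the membrane, though Sdhd (0.34) missed the threshold with library totals (0.20). Complex I had 17 of 35 higher, led by Ndufc1 (0.85), and 4 lower, led by Ndufv1 (-0.60), and complex IV 9 of 15 higher and 1 lower. With library totals the counts of higher genes were smaller, with 8 higher and 5 lower in complex I, 5 and 1 in complex IV, 2 and 4 in complex III, 1 and 7 in complex V, and 2 and 0 in complex II. Of all genes 27.2% were then higher and 37.1% lower. The genes named here other than Sdhd had the same sign and still passed the threshold (Uqcrc2 -0.86, Ndufv1 -0.74, Atp5a1 -0.74, Atp5g2 -0.72, Uqcrb 0.47, Sdhc 0.73 and Ndufc1 0.70). Atp5sl, outside the complexes, was lower with TMM factors (-0.58) and with library totals (-0.73).

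Complex IV has pairs of subunit forms, of which one is found in most tissues and the other mainly in muscle, lung, testis or under low oxygen. A UMI stands for 1 captured 3′ end whatever the length of the message. In the Cox4, Cox6a, Cox6b, Cox7b, Cox8 and Ndufa4 groups the common form held 99.1% or more of the UMIs in all 3 cell types. Cox4i1 stood at 1437, 1491 and 2672 CPM over the pooled libraries of CD8 T, macrophage-like and melanoma-like cells, and Cox4i2, the form of lung and low oxygen, at 0.0344 (1 UMI), 13.1 (10.3 to 16.4) and 0.120 (2 UMIs). Its 75 UMIs in macrophage-like cells came from 64 of 965 cells (6.63%) and from all 4 libraries, beside 1 of 5025 CD8 T cells (0.0199%) and 2 of 1238 melanoma-like cells (0.162%). The median cell held 3004 to 9110 UMIs in macrophage-like cells, 3750 to 6834 in CD8 T cells and 10200 to 31760 in melanoma-like cells. The part of depth in this difference was not tested. Cox6a2, the muscle form, stood at 0.550, 7.31 and 0.539 CPM, beside Cox6a1 at 672, 776 and 846. Both restricted forms thus had their highest CPM in macrophage-like cells.

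Cox7a1, another muscle form, stood at 2.17, 10.3 and 7.01 CPM, beside Cox7a2 at 621, 687 and 1902. Cox6b2, the testis form, stood at 4.57 CPM in CD8 T cells (116 of 5025 cells), 3.31 in macrophage-like cells (19 UMIs) and 0.120 in melanoma-like cells (2 of 1238 cells), beside Cox6b1 at 765, 1000 and 1328. CD8 T cells and macrophage-like cells overlapped between libraries and did not pass the test for Cox6b2 (-0.36, SE 0.41, edgeR adjusted p = 0.47), and melanoma-like cells were lower than both (adjusted p = 7.3e-07 and 5.0e-05). Cox8b, the muscle form whose upstream sequence holds 1 CpG, was seen in melanoma-like cells only, in all 4 libraries (7.64, 2.09, 9.04 and 15.2 CPM), in 69 of 1238 cells. It had 0 UMIs in 5025 CD8 T cells, which allows up to 0.103 CPM, and 0 in 965 macrophage-like cells, which allows up to 0.522 CPM. Pooled, its 7.97 CPM (6.67 to 9.44) in melanoma-like cells was 77.3 times that limit in CD8 T cells and 15.2 times that in macrophage-like cells. These ratios leave out the counting error of its 133 UMIs in melanoma-like cells. Cox7b2 and Cox8c had 0 UMIs in all 3 cell types. Ndufa4l2, known for its induction by low oxygen, stood at 0.0344, 2.61 and 0.839 CPM, with up to 10 UMIs in 1 melanoma-like cell.

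**Figure D5:**
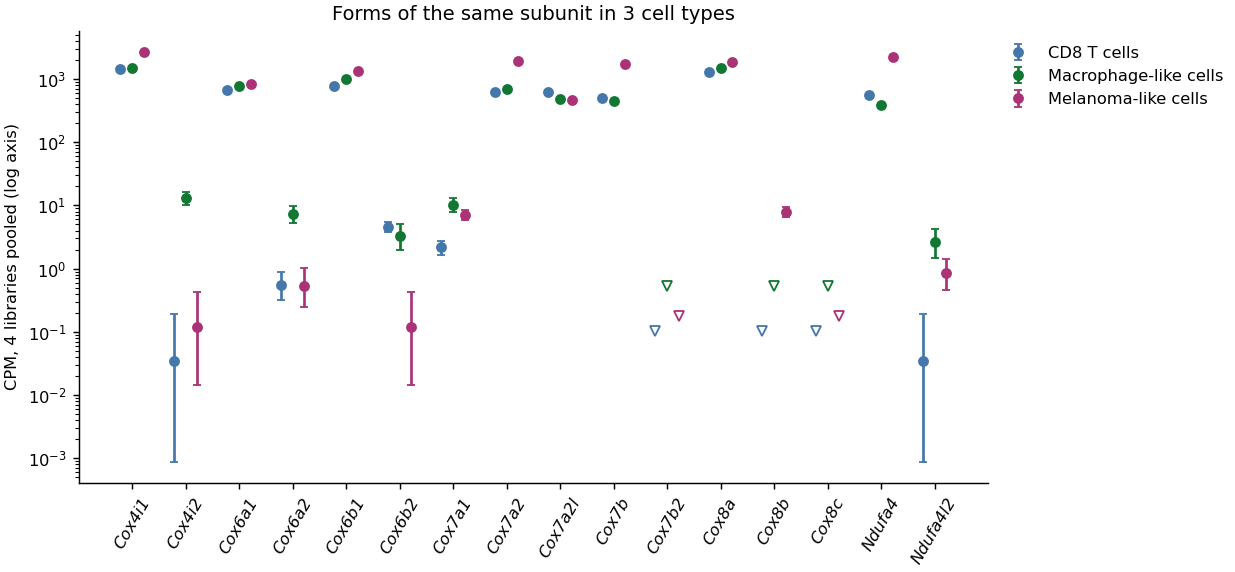
Points give the CPM (log axis) of common and restricted forms of the Cox4, Cox6a, Cox6b, Cox7a, Cox7b, Cox8 and Ndufa4 subunits in 3 cell types with the 4 libraries pooled, and bars the exact 95% Poisson interval. Open triangles mark the limit of 3 UMIs where a form had 0. Common forms lie between 384 and 2672 CPM, and restricted ones at 13.1 CPM or less.

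The 3 genes of subunit c, which forms the rotor ring of ATP synthase and has the same mature protein from each, were all expressed. Atp5g1, Atp5g2 and Atp5g3 held 32.7%, 47.9% and 19.4% of their summed UMIs in CD8 T cells, 40.4%, 40% and 19.6% in macrophage-like cells and 41.1%, 32.3% and 26.7% in melanoma-like cells. The leading gene was thus Atp5g2 in CD8 T cells and Atp5g1 in melanoma-like cells. Cox7a2l took 49.7% of the UMIs of the Cox7a2, Cox7a1 and Cox7a2l group in CD8 T cells, 40.6% in macrophage-like cells and 19.4% in melanoma-like cells. Its level was 557, 655, 684 and 547 CPM in CD8 T cells and 412, 430, 566 and 597 CPM in melanoma-like cells.

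Of the other genes with the highest levels in CD8 T cells, Cox4i1 (1626, 1375, 1508 and 1317 CPM) and Cox8a (1361, 1312, 1314 and 1285) led complex IV, and Atp5b and Atp5e (913, 1012, 768 and 1007) complex V. Uqcrh (842, 935, 930 and 842) and Uqcr10 (844, 556, 611 and 602) led complex III, and Ndufa13 (605, 600.3, 592 and 592) and Ndufb7 (493, 421, 480.5 and 453) complex I. The highest library was 1.06 times the lowest for Cox8a, 1.11 times for Uqcrh and 1.02 times for Ndufa13, but 1.85 times for Atp5b. The 10 genes under the floor in CD8 T cells ranged up to Atp5sl at 16.5 CPM, and the scarcest one above it was Ndufs1 at 29.0 CPM.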

How the data were processed

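The 4 deposited tables hold whole-number UMI counts per gene and cell, made by the authors with a 10x Genomics 3′ kit of version 2 chemistry, per the labels' protocols. How reads were aligned and counted for these tables was not stated in the sources at hand; the submitters' processing notes name the build mm10. Each table lists its cells in 2 ways, and barcodes with 2 hyphens were used. The 27916 genes shared by the tables were kept, and cells needed 500 genes and at most 10% mitochondrial UMIs. Cells were clustered with scanpy 1.11.5 (Leiden, resolution 1.0, 30 components, 2000 variable genes), with no doublet caller. CD8 T cell clusters were named as planned. The rule for melanoma-like and macrophage-like clusters was changed after the clusters were seen, because it left melanoma cells unnamed: clusters with at least 0.25 of the highest summed marker level were compared with the cells outside them and needed 3 markers among the top 10 genes. Counts were summed per library and class. With 1 library per group, genotype and treatment have no test; intervals are exact, conditional on the summed count, and cover counting error only. Cell types were compared with edgeR 4.0.16 (R 4.3.3; quasi-likelihood test, TMM factors, library as block, Benjamini-Hochberg over 10486 genes, adjusted p under 0.05), after tests on simulated counts. Cell types of 1 library share it, so the block follows from the design: deviations within a library correlated at -0.125 to 0.483.

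Named genes were all called ones (the 6 with the largest folds if over 12, or the 2 highest and 2 lowest if under 4), the 5 largest ratios each way between cell types, the paralog groups, the 2 most abundant genes of each complex, complex II, and the extremes of each other list; further names were chosen after their values were seen. The genes and lists were chosen with earlier results of these data known. Alternatives covered scaling, filters, cell choice, clustering, tools and left-out libraries.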

Additional observations from a re-analysis of the deposited data

Results flagged for a closer look

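The ratio of knockout over wild-type in CD8 T cells lay on opposite sides of 0 without and with anti-PD-L1, in pairs of libraries that share none. For the summed subunit genes it was -0.219 in untreated tumours and 0.0494 with anti-PD-L1. For Ndufa9 it was -0.728 and 0.31, and for Uqcrc1 -0.63 and 0.134. Each counting interval left out 0, but there is 1 library per group and the difference between the ratios was not tested. With TMM factors the summed ratio under anti-PD-L1 was -0.0135, on the same side as the untreated one.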

How the results depend on the processing

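Of the values recomputed, 103 of 120 counts and 31 of 48 summed ratios in CD8 T cells, and 59 of 66 counts between cell types, stayed within the limits set (1.5 times for counts, the counting interval for sums). Below, the summed log2 ratios are in the order genotype untreated, genotype with anti-PD-L1, treatment in wild-type, treatment in knockout. With TMM factors they were -0.1388, -0.0135, -0.1382 and -0.0128, with 7 genes lower and 1 higher for treatment in the wild-type. In cells of 3000 to 6000 UMIs, chosen after seeing the data, they were -0.2778, 0.024, -0.3547 and -0.0529, with 13 lower, 1 lower, 24 lower and 1 higher, and 1 higher. With equal weight per cell those that moved were -0.2423, 0.0595 and -0.307. Without cycling-like clusters the treatment ratios were -0.2965 and -0.0235, and without globin-holding cells, added after seeing the data, genotype with anti-PD-L1 gave 0.0625 and treatment in wild-type -0.2938. The last ratio, near 0 throughout, was 0.0006 with the other listing of barcodes and 0.0008 with a gate per cell. The other listing left 3 genes lower for genotype untreated. With no floor, 1 gene was higher and 1 lower for genotype under anti-PD-L1. With the lower fold rule among the alternatives the counts were 27 lower, 1 higher and 3 lower, 1 higher and 44 lower, and 4 higher and 1 lower.

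Between cell types, library totals (added) gave 18 higher in macrophage-like over CD8 T cells, 3 lower in melanoma-like over CD8 T cells, and 68 higher and 4 lower in melanoma-like over macrophage-like cells. Without the replicate block, the pairing by library, 27 were higher and 13 lower, 49 higher and 6 lower, and 42 higher and 9 lower. Leaving out each library in turn gave 23 to 34 higher and 10 to 13 lower, 48 to 51 and 4 to 9, and 40 to 43 and 6 to 13; the 4 and the 6 came without knockout untreated. The cause of these differences was not tested. With 1 library per group, differences between libraries cannot be told apart from genotype or treatment. Depth limits the forms with few UMIs and the 50 melanoma-like cells of knockout with anti-PD-L1.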
